A study of Mus musculus with 11 samples.

Results

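The cytokine genes described here are Il10, Il12a, Ebi3, Tnf, Lta, Ltb and Il6, which encode secreted or membrane-bound immune mediators that B cells can make. They were taken as the probe sets whose platform annotation names exactly one of these symbols. This gave 7 probe sets, 1 per gene, out of 34945 probe sets with a single symbol, or 7 of 18193 genes. No probe set annotated with several symbols named a member (0 of 932). RNA came from splenic B cells of female mice aged 6 weeks, pooled from 7 to 8 spleens per lot with 3 lots per strain, and isolated by magnetic negative depletion. Cells were kept for 2 h in RPMI medium with 10 µg/ml of goat F(ab')2 fragments against mouse IgM, which cross-link the B cell receptor, or in medium alone. The groups were anti-IgM NOD (2 arrays), unstimulated NOD (3 arrays), anti-IgM NR4 (3 arrays) and unstimulated NR4 (3 arrays), each RNA on 1 genome-wide Affymetrix expression array. NOD is NOD/ShiLtJ, a strain that develops autoimmune diabetes, and NR4 is NOD.NOR-Chr4/DvsJ, a NOD congenic with a segment of chromosome 4 from the NOR strain. The F(ab')2 fragments lack the Fc part, so they do not engage Fc receptors through it. The cells are pools of several mice, and the 2 cultures of a strain came from the same lots.

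The products of these genes work in small families. IL-10 is a homodimer that dampens macrophage, dendritic cell and T cell activation, and B cells that secrete it are known as regulatory B cells. Il12a encodes the p35 chain, which is secreted as IL-12 when joined to p40 (Il12b) and as IL-35 when joined to the chain that Ebi3 encodes. EBI3 also pairs with p28 (Il27) to form IL-27. Tnf, Lta and Ltb are a gene cluster of the tumour necrosis factor family. B cell lymphotoxin, made of the Lta and Ltb products, maintains follicular dendritic cells and splenic architecture, and IL-6 from B cells promotes helper T cell responses and autoimmunity.

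In RefSeq (GRCm38.p6) the members lie on chromosome 1 (Il10), 3 (Il12a), 5 (Il6) and 17 (Ebi3, Tnf, Lta and Ltb), so none lies on chromosome 4. Along chromosome 17 the order is Ltb, a microRNA gene, Tnf and Lta. Promoters of 6 of the 7 members matched in the RefSeq table, all but that of Il10. Those of Il12a, the member that fell with stimulation, of the chromosome 17 neighbours and of Il6 are shown, as the 250 bases before each transcript start on the gene's strand. Capitals mark matches on either strand to NF-kB (GGG and CC with any 5 bases between), AP-1 (TGANTCA), CRE (TGACGTCA), NFAT (GGAAA) or the TATA box (TATAAA), some of which overlap. N stands for any base.
Il12a upstream start, GRCm38.p6 chr3:68690394-68690643 (+ strand): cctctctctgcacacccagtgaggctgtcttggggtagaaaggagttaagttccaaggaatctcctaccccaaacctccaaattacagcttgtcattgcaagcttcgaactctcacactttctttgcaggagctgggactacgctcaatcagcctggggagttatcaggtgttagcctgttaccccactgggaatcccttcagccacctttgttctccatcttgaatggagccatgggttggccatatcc
Il12a downstream start, GRCm38.p6 chr3:68691174-68691423 (+ strand): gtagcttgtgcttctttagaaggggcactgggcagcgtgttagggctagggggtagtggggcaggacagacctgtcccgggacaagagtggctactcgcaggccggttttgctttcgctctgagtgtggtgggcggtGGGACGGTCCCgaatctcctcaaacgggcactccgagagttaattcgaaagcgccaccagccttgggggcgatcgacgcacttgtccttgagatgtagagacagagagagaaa
Ltb, GRCm38.p6 chr17:35194257-35194506 (+ strand): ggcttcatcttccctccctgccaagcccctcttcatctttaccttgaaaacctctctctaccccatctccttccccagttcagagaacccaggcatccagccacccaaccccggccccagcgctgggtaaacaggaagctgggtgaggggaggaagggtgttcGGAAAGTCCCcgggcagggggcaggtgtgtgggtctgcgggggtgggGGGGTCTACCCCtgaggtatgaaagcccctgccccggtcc
Tnf, GRCm38.p6 chr17:35202008-35202257 (- strand): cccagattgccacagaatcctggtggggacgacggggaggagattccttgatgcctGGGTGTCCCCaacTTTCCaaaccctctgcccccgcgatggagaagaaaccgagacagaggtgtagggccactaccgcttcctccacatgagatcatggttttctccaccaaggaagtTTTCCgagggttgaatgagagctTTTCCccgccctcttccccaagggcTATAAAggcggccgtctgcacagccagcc
Lta, GRCm38.p6 chr17:35205352-35205601 (- strand): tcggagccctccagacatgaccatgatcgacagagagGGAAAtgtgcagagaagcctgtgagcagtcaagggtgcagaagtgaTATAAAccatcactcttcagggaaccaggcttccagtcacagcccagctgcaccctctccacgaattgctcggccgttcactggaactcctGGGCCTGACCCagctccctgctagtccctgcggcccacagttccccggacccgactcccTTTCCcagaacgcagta
Il6, GRCm38.p6 chr5:30012864-30013113 (+ strand): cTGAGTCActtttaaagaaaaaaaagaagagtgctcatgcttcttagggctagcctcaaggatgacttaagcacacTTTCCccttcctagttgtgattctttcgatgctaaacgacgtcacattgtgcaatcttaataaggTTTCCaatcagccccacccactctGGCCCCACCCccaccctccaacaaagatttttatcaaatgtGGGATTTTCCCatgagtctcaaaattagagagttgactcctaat

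These letters are common. Among 32851 RefSeq promoter windows of 300 bases, 50.8% held the NF-kB letters, 61.3% the NFAT letters, 13.6% the TATA box, 7.81% the AP-1 letters and 1.79% the CRE letters. Of the 7 windows of the members, 6 held the NF-kB letters, 6 the NFAT letters, 2 the TATA box, 1 the AP-1 letters and 0 the CRE letters. The windows are 2 of Il12a and 1 of each other member except Il10, which has none, and that of Ebi3 is not printed. Each holds the 250 bases before the start and 50 after it, so some counted matches lie outside the printed bases. The NFAT match of the downstream Il12a start, at 19 to 23 after the start, is such a match. The upstream Il12a start matched none of the 5 motifs, while the other Il12a start held GGGACGGTCC at bases -113 to -104 before the start. The Il6 window held GGGATTTTCC at -44 to -35 and TGAGTCA at -249 to -243. In the Tnf window the TATA box lay at -29 to -24 and GGGTGTCCCC at -194 to -185. A match describes letters in a window of the reference strain and is not a measured binding site.

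Anti-IgM raised Il10 and lowered Il12a in B cells. Averaged over both strains, Il10 rose by 1.57 log2 units, a 2.96-fold change, and Il12a fell to 0.432 of its unstimulated signal, a log2 difference of -1.21. Of the 7 genes, 1 rose, 1 fell and 5 did not pass (limma, Benjamini-Hochberg adjusted p below 0.05 over all genes). The same test called 1.56% of all 18193 genes, 0.715% as higher and 0.841% as lower. At an unadjusted p under 0.05 there were 3 of the 7 genes, with Tnf as the third, against 11.4% of all genes. The median response of the 7 was 0.11 log2 units, against 0.003 over all genes. Values are log signals centred on the gene's median over the 11 arrays, and base 2 is assumed, as no source gives it. Values are rounded to 2 decimals, so a printed 0.00 lies at or near that median. Levels of different genes can therefore not be compared, and it is not known which members lie near background.

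The 3' to 5' difference of the actin and Gapdh control probe sets is a sign of RNA quality. It separated the cultures in NOD but not in NR4. These control values are centred as well, so the differences compare arrays and do not give absolute RNA quality. The mean difference of the 2 controls was 0.21 and 0.13 in anti-IgM NOD, against -0.01, -0.04 and -0.08 in unstimulated NOD. These did not overlap, as was true of 20.2% of all genes in NOD. It was 0.96, 0.04 and 0.23 in anti-IgM NR4, against -0.05, -0.07 and 0.29 in unstimulated NR4, where the ranges overlapped. NR4 anti-IgM replicate 1, at 0.96, stood apart from the other 10 arrays (-0.08 to 0.29). Without that array the averaged response was 1.58 for Il10 (limma adjusted p = 0.0017), -1.18 for Il12a (limma adjusted p = 0.022), 0.37 for Tnf and -0.70 for Ltb. The part of RNA quality in the responses was otherwise not tested.

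**Figure D1:**
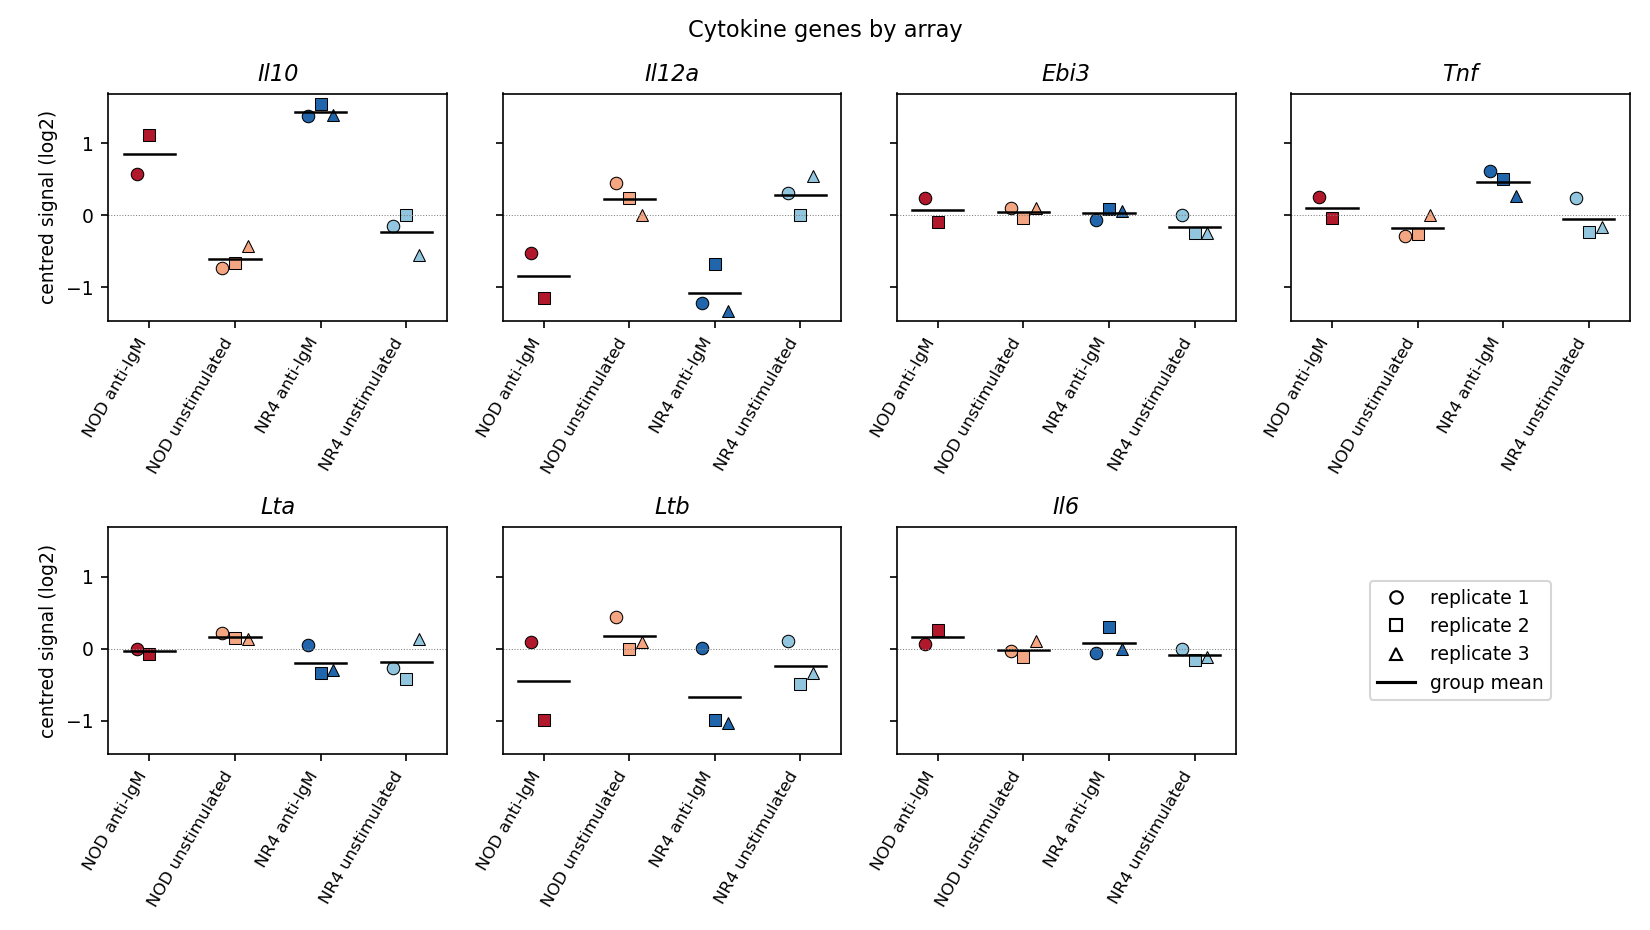
Centred signal (log2, vertical axis) of each of the 7 genes on every array, by strain and culture, with replicate numbers as symbols and group means as lines. Il10 anti-IgM arrays (0.58 to 1.55) lie above, and Il12a anti-IgM arrays (-1.32 to -0.52) below, all unstimulated arrays.

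Il10, the anti-inflammatory cytokine, read 0.58 and 1.12 in anti-IgM NOD cells, against -0.73, -0.66 and -0.43 in unstimulated NOD cells (centred log2 signal). In NR4 it read 1.38, 1.55 and 1.40 with anti-IgM, against -0.14, 0.00 and -0.55 unstimulated. Every anti-IgM array of either strain was above every unstimulated array. The group means were 0.85 ± 0.38 in anti-IgM NOD (SD, n = 2) and -0.61 ± 0.16 in unstimulated NOD (SD, n = 3). They were 1.44 ± 0.10 in anti-IgM NR4 and -0.23 ± 0.29 in unstimulated NR4 (SD, n = 3 each). The averaged rise of 1.57 had an SE of 0.13 and a 95% interval of 1.28 to 1.85 (limma adjusted p = 0.00042). By size of the rise Il10 ranked 10 among 18193 genes, and 10 by p-value.

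The rise of Il10 was seen in each strain. In NR4 it was 1.67 log2 units (SE 0.17, limma adjusted p = 0.0043), where 0.412% of all genes passed, and Il10 ranked 3 by size of rise. In NOD it was 1.46 (SE 0.19, limma adjusted p = 0.029), where 0.115% of all genes passed. Between same-numbered arrays the difference was 1.31 and 1.78 in NOD and 1.52, 1.55 and 1.95 in NR4. The averaged and NR4 calls held without each of the 11 arrays in turn. The NOD call was lost without any 1 of the 5 NOD arrays or without NR4 unstimulated replicate 1 (limma adjusted p = 0.061 to 0.24), and after quantile normalization (adjusted p = 0.062), with rises of 1.19 to 1.73.

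Il12a, the p35 chain of IL-12 and IL-35, read -0.52 and -1.15 in anti-IgM NOD cells, against 0.45, 0.24 and 0.00 in unstimulated NOD cells. In anti-IgM NR4 cells it read -1.21, -0.68 and -1.32, against 0.31, 0.00 and 0.55 unstimulated. No anti-IgM array reached the level of an unstimulated one in either strain. Il10 and Il12a were the 2 members whose arrays separated in both strains in the same direction, as 5.64% of all genes did. The averaged difference of Il12a was -1.21 log2 units (SE 0.17, 95% interval -1.59 to -0.84, limma adjusted p = 0.0085). It ranked 11 among 18193 genes by size of fall and held without each array in turn (limma adjusted p up to 0.048).

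By strain, Il12a differed by -1.36 in NR4 (SE 0.22, limma adjusted p = 0.038) and by -1.06 in NOD (SE 0.25, limma adjusted p = 0.26). Same-numbered arrays differed by -0.97 and -1.38 in NOD and by -1.52, -0.68 and -1.88 in NR4. The NR4 call lies close to the threshold. It held without either anti-IgM NOD array or without NR4 anti-IgM replicate 2, and was lost without any other single array (limma adjusted p = 0.054 to 0.17), with differences of -1.50 to -1.23. It was also lost after quantile normalization (-1.33, adjusted p = 0.16) and when every probe set was tested on its own (adjusted p = 0.058).

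**Figure D2:**
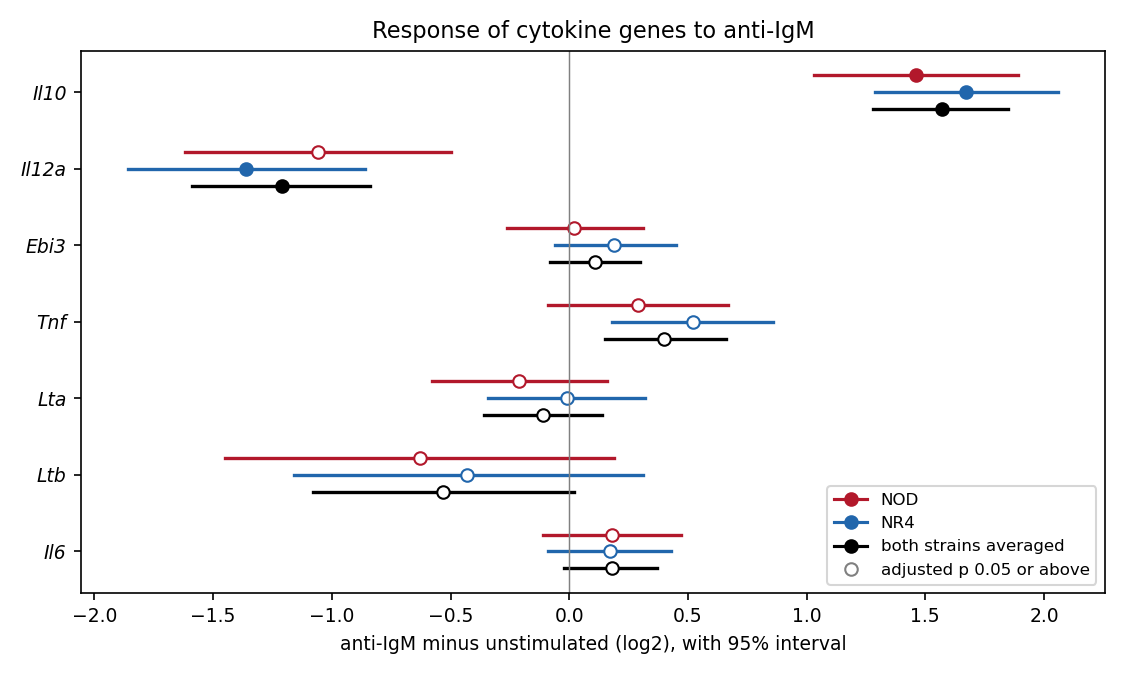
Response to anti-IgM (log2, horizontal axis) of the 7 genes in NOD, in NR4 and as the average of both, with 95% intervals from limma. Filled points passed adjustment, which were Il10 in all 3 comparisons and Il12a in NR4 and in the average.

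Ebi3, whose product joins p35 in IL-35, showed no change with stimulation that passed the test. It read 0.24 and -0.09 in anti-IgM NOD cells, against 0.10, -0.04 and 0.10 in unstimulated NOD cells. Anti-IgM NR4 cells gave -0.06, 0.09 and 0.06, against 0.00, -0.24 and -0.25 unstimulated. The groups overlapped in both strains. The averaged difference was 0.11 log2 units (SE 0.09, limma adjusted p = 0.80), and its 95% interval of -0.08 to 0.30 lies apart from that of Il12a. The genes of the other partner chains were also not called. Il12b, the p40 chain of IL-12, was at -0.04 (SE 0.07, 95% interval -0.19 to 0.11), Il23a, the p19 chain of IL-23, at 0.08 (SE 0.08), and Il27 was not analysed here.

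Of the 3 neighbours on chromosome 17, none passed in the averaged response, and their directions differed. Tnf, the inflammatory cytokine, read 0.25 and -0.03 in anti-IgM NOD cells, against -0.28, -0.26 and 0.00 in unstimulated NOD cells, and those ranges overlapped. In NR4 it read 0.62, 0.51 and 0.27 with anti-IgM, against 0.24, -0.23 and -0.16 unstimulated, without overlap, as 12.6% of all genes were in NR4. The averaged difference was 0.40 (SE 0.11, 95% interval 0.15 to 0.66), with an unadjusted p of 0.0054 and an adjusted p of 0.14 (limma). All 5 same-numbered differences were positive, from 0.23 to 0.74, but the share of all genes with such a pattern is not given here.

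Lta, the secreted lymphotoxin chain, read 0.00 and -0.07 in anti-IgM NOD cells, against 0.22, 0.15 and 0.14 in unstimulated NOD cells. These did not overlap, as was true of 20.2% of all genes in NOD. Anti-IgM NR4 cells gave 0.05, -0.33 and -0.29, against -0.26, -0.42 and 0.14 unstimulated, and the ranges overlapped. The averaged difference was -0.11 (SE 0.11, 95% interval -0.36 to 0.14, limma adjusted p = 0.88).

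Ltb, the membrane-anchoring chain of lymphotoxin, spread widely between anti-IgM arrays, with an SD of 0.76 in NOD (n = 2) and 0.59 in NR4 (n = 3). It read 0.09 and -0.99 in anti-IgM NOD cells, against 0.44, 0.00 and 0.10 in unstimulated NOD cells. Its NR4 values were 0.01, -0.98 and -1.03 with anti-IgM, against 0.11, -0.48 and -0.34 unstimulated. Replicate 1 was the highest array of each of the 4 groups, a pattern found in 13.7% of all genes. The averaged difference was -0.53 (SE 0.25, 95% interval -1.08 to 0.02, limma adjusted p = 0.47). With the replicate number as a block shared by both strains it was -0.58 with an SE of 0.11 and passed (limma adjusted p = 0.033). That model called 3.07% of all genes. All 5 same-numbered differences were negative, from -0.99 to -0.10, again without a share over all genes to set beside it. Without NOD anti-IgM replicate 2 the unblocked difference was -0.26, and without NOD anti-IgM replicate 1 it was -0.80. T cells also express Ltb, and the mean centred signal of 8 T cell markers was -0.08 to 0.11 in anti-IgM NOD and -0.13 to 0.13 in unstimulated NOD. It was -0.04 to 0.05 in anti-IgM NR4 and -0.30 to 0.13 in unstimulated NR4, and 0 of the 8 were called. Its part in the spread of Ltb was not tested.

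**Figure D3:**
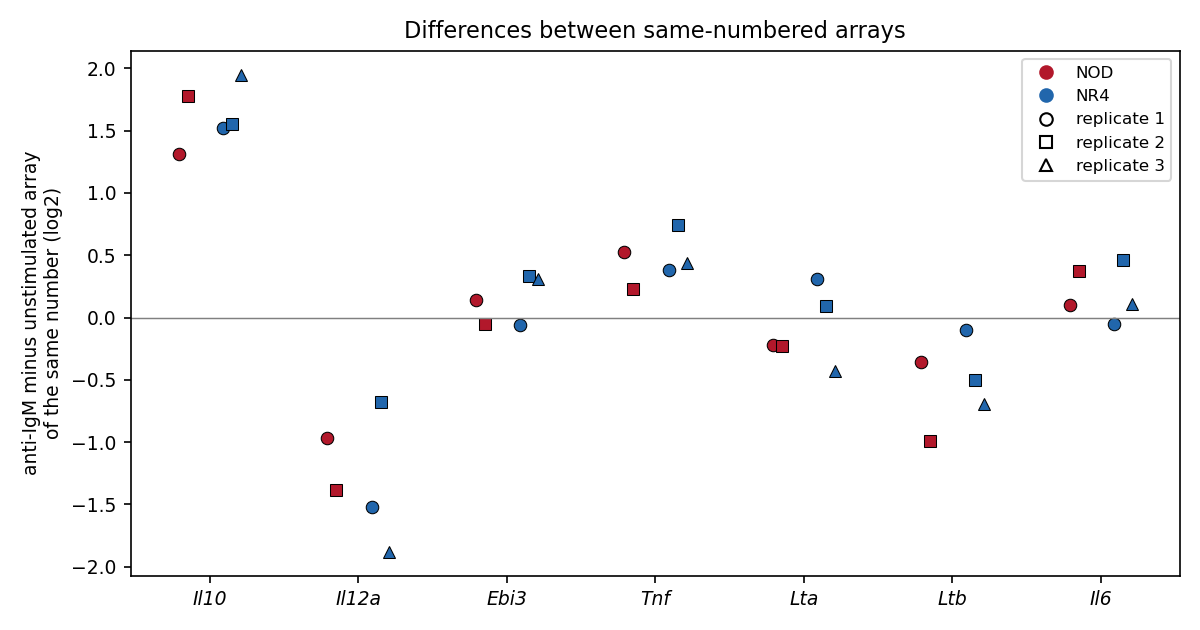
Difference between the anti-IgM and the unstimulated array of the same replicate number (log2, vertical axis) for each gene, with strain as colour and number as symbol. All 5 differences are positive for Il10 (1.31 to 1.95) and Tnf (0.23 to 0.74) and negative for Il12a (-1.88 to -0.68) and Ltb (-0.99 to -0.10), and Ebi3, Lta and Il6 have both signs. The share of all genes with 5 differences of the same sign is not given, and Tnf and Ltb did not pass in the main fit.

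Il6, the gene of a cytokine that supports plasma cells and helper T cells, did not pass in any comparison. It read 0.07 and 0.26 in anti-IgM NOD cells, against -0.03, -0.11 and 0.11 in unstimulated NOD cells. In NR4 it read -0.05, 0.30 and 0.00 with anti-IgM, against 0.00, -0.16 and -0.11 unstimulated. The ranges overlapped in both strains. The averaged difference was 0.18 (SE 0.09, 95% interval -0.02 to 0.37, limma adjusted p = 0.52). The upper bound of that interval is below the lower bound for Il10, 1.28.

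**Figure D4:**
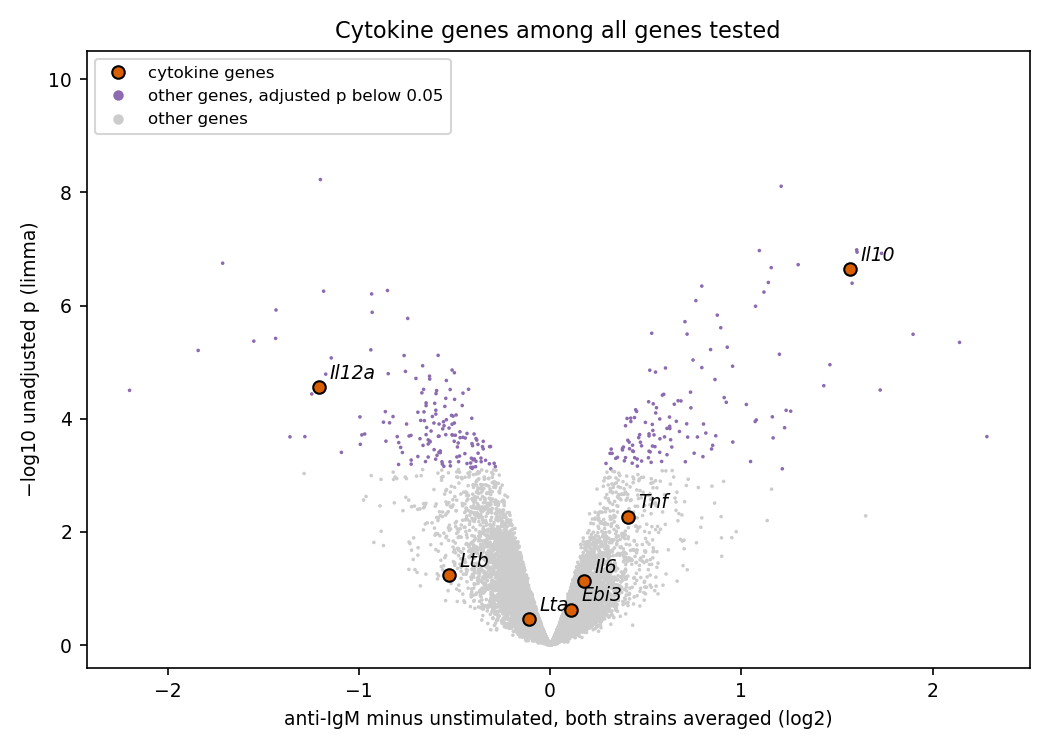
Averaged response to anti-IgM (log2, horizontal axis) against minus log10 of the unadjusted limma p for all 18193 genes, with the 7 cytokine genes as large points. Il10 and Il12a stand among the 283 genes past adjustment, and the other 5 members did not pass.

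No member differed between the strains after adjustment (0 of 7, against 0.121% of all genes), averaged over cultures as NOD minus NR4. At an unadjusted p under 0.05 there were 2 members, Il10 and Lta, against 4.39% of all genes. Il10 was at -0.48 (SE 0.13, 95% interval -0.77 to -0.20, unadjusted p = 0.0037, limma adjusted p = 0.59). In anti-IgM cells its NOD arrays (0.58 and 1.12) all lay below its NR4 arrays (1.38 to 1.55), as 14.1% of genes were separated there, and in unstimulated cells the strains overlapped. Lta was at 0.25 (SE 0.11, limma adjusted p = 1.0), and its unstimulated NOD arrays (0.14 to 0.22) all lay above its unstimulated NR4 arrays (-0.42 to 0.14), the nearest by 0.002. Such a separation held for 6.38% of all genes. Tnf was at -0.24 (SE 0.11), Ltb at 0.32 (SE 0.25), Ebi3 at 0.13, Il12a at 0.09 and Il6 at 0.08 (limma adjusted p = 1.0 each). The anti-IgM NOD arrays of Tnf (-0.03 and 0.25) also all lay below its anti-IgM NR4 arrays (0.27 to 0.62), among the 14.1% of genes separated there. Between same-numbered unstimulated arrays Ltb differed by 0.33, 0.48 and 0.44 and Ebi3 by 0.10, 0.20 and 0.35, all higher in NOD. The strains are different mice in separate lots, so a shared number is not a shared source of cells. Both genes were named after their values were seen, and no share over all genes is given. Their unadjusted p in the main fit was 0.23 for Ltb and 0.16 for Ebi3 (limma). Between same-numbered anti-IgM arrays Ltb differed by 0.07 and -0.01 and Ebi3 by 0.30 and -0.18. With the replicate block the strain difference of Ltb was 0.27 (SE 0.11, unadjusted p = 0.04, limma adjusted p = 0.56). That fit put 4 members under an unadjusted p of 0.05, Il10, Lta, Tnf and Ltb, against 8.57% of all genes, and 0 past adjustment.

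The response itself was not shown to differ between strains for any member. In the interaction test 0 of 7 passed adjustment and 0 of 7 an unadjusted p under 0.05 (limma), against 0 and 255 genes overall (1.4%). NOD minus NR4 responses were -0.22 for Il10 (SE 0.26, 95% interval -0.79 to 0.36) and 0.30 for Il12a (SE 0.34, 95% interval -0.45 to 1.05). Only 2 anti-IgM NOD arrays enter this test, and the intervals reach -0.79 for Il10 and 1.05 for Il12a.

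The genes that sense, regulate or accompany these cytokines were counted from lists chosen with earlier results of these data known. Among all genes, 1.56% were called in the averaged response. Of 11 receptor chains of the members, 0 were called, with a median of 0.09 log2 units. Tnfrsf1a, a TNF receptor, was at 0.20 (SE 0.13, limma adjusted p = 0.71) and Tnfrsf14, the receptor of LIGHT, at -0.26 (SE 0.18, limma adjusted p = 0.75). Of 3 genes for shedding of membrane TNF, 0 passed, with Rhbdf2 at 0.14 (SE 0.15) and Adam17, the TNF-cleaving protease, at 0.03 (SE 0.07). Of 8 regulators of cytokine mRNA decay and translation, 1 rose and 7 did not pass. The riser was Zfp36, whose product tristetraprolin destabilises Tnf mRNA, by 0.43 (SE 0.09, limma adjusted p = 0.042). Its call lies at the threshold. It was lost with quantile normalization and with the lowest-numbered probe set of each gene (limma adjusted p = 0.056 each). It was also lost without any 1 of 10 arrays, and held without NR4 unstimulated replicate 3, with values of 0.38 to 0.50.

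Of 12 regulators known to act on Il10 transcription, 3 rose, 0 fell and 9 did not pass, and the median was 0.26 against 0.003 over all genes. Ahr, the aryl hydrocarbon receptor, rose by 1.07 (SE 0.10, limma adjusted p = 0.00098). Irf4, a factor of plasma cell differentiation, rose by 0.79 (SE 0.07, limma adjusted p = 0.00064), though its lowest-numbered probe set alone gave 0.30 (adjusted p = 0.071). Bhlhe40, a repressor of Il10 in T cells, rose by 0.68 (SE 0.10, limma adjusted p = 0.011), and without either anti-IgM NOD array it did not pass (adjusted p = 0.054 and 0.056). Ahr and Irf4 passed without each of the 11 arrays in turn. With the replicate block, which called 3.07% of all genes against 1.56% without it, the count was 4 up, 1 down and 7 not passing. The added genes, named here after their values were seen, were Nfil3 at 0.59 (SE 0.11, limma adjusted p = 0.032 with the block and 0.39 without) and Creb1 at -0.27 (SE 0.06, limma adjusted p = 0.044 with the block and 0.08 without).

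Of 28 other measured cytokine genes, 0 rose and 0 fell (limma), with a median of -0.03. The smallest p-values were those of Tnfsf9, the 4-1BB ligand, at 0.91 (SE 0.21, limma adjusted p = 0.064), and Il16, at -0.44 (SE 0.11, limma adjusted p = 0.084). Both passed with the replicate block (adjusted p = 0.036 and 0.026). Of 8 measured markers used to enrich for IL-10 competent B cells, 1 rose, 1 fell and 6 did not pass, where 1.56% of all genes were called. Cd5, a surface regulator of receptor signalling, rose by 0.95 (SE 0.17, limma adjusted p = 0.025), and Cd1d1, a lipid-presenting molecule, was at -0.39 (SE 0.08, limma adjusted p = 0.040). The Cd5 call held without NOD unstimulated replicate 1, NR4 unstimulated replicate 1 or NR4 anti-IgM replicate 2, and was lost without any other single array. The Cd1d1 call held only without NR4 anti-IgM replicate 3 among the 11 arrays, and its lowest-numbered probe set was at -0.23 (adjusted p = 0.42).

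**Figure D5:**
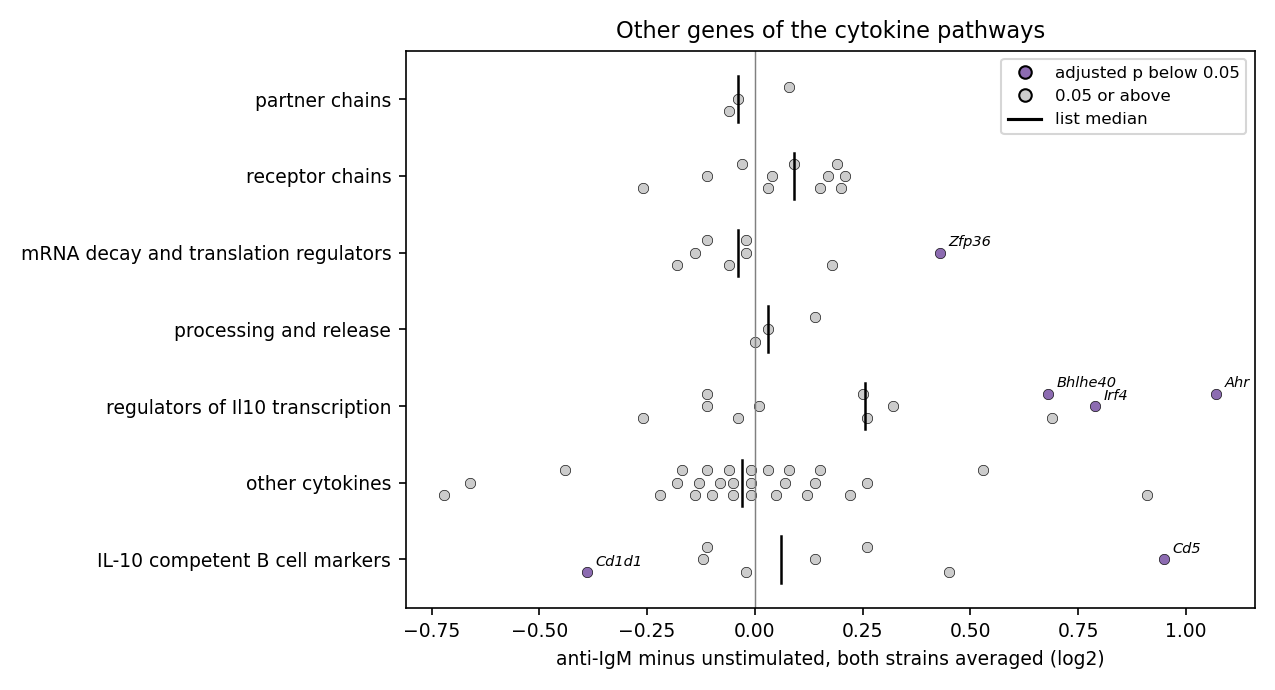
Averaged response to anti-IgM (log2, horizontal axis) of each measured gene in 7 lists around the cytokine genes, with list medians as bars. The genes past adjustment are named, with Ahr at 1.07 and Cd5 at 0.95 the highest and Cd1d1 at -0.39 the lowest.

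The genes most like Il10 over the 11 arrays, by Pearson correlation among all genes, were Egr2 (0.959), Gdap10 (0.955), Atp6ap2 (0.951), Tent5c (0.945) and Slc37a2 (0.938). Egr2, a zinc finger factor induced by antigen receptors, rose by 1.21 and Gdap10 by 1.30, while Atp6ap2 was at 0.16 (SE 0.06, limma adjusted p = 0.27). The genes most like Il12a were Rasgrp3 (0.966), Sorl1 (0.957), Ralgps2 (0.955), Slc14a1 (0.954) and Ppp3ca (0.949). Rasgrp3, a Ras activator of B cells, differed by -0.93 (SE 0.09) and Slc14a1, a urea transporter, by -1.55 (SE 0.17). Il10 and Il12a had a correlation of -0.93 with each other. These correlations describe likeness over arrays that share the 2 cultures, and no test was made of them.

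Markers of other cells were set beside these changes, because macrophages and dendritic cells make Il10 and Il12a and T cells make Tnf and Lta. The share of all genes called in the averaged response was 1.56%. Of 8 macrophage and monocyte markers 0 were called, and their mean centred signal was -0.02 to 0.18 in anti-IgM NOD and -0.05 to 0.10 in unstimulated NOD. It was -0.14 to 0.12 in anti-IgM NR4 and -0.17 to -0.02 in unstimulated NR4. Among them Cd14, a co-receptor for lipopolysaccharide named after its values were seen, was at 0.58 (SE 0.13, limma adjusted p = 0.063), with 0.60 in NOD and 0.56 in NR4. With the replicate block it passed at 0.53 (SE 0.11, limma adjusted p = 0.036). Of 6 dendritic cell markers 1 rose, Itgax by 0.50 (SE 0.08), and the mean of the list did not overlap between cultures in either strain. That mean was 0.10 to 0.20 in anti-IgM NOD, against -0.06 to 0.07 in unstimulated NOD, and 0.02 to 0.14 in anti-IgM NR4, against -0.12 to -0.02 in unstimulated NR4. The median response of the 6 dendritic cell markers was 0.07. Their mean includes Itgax and was not computed without it. The means of the plasma cell and pan B cell lists also did not overlap between cultures in either strain. Of 6 plasma cell markers 1 rose, Irf4, which is also among the Il10 regulators. Their mean was 0.00 and 0.08 in anti-IgM NOD, against -0.12 to -0.04 in unstimulated NOD, and 0.15 to 0.28 in anti-IgM NR4, against -0.01 to 0.04 in unstimulated NR4. Without Irf4 the plasma cell means of the 2 cultures overlapped in both strains. None of 7 NK markers or 6 neutrophil markers passed (limma), and their means overlapped between cultures in both strains. The NK mean of NR4 unstimulated replicate 3 was the lowest at -0.74, and without that array the averaged response was 1.49 for Il10 (limma adjusted p = 0.0015) and -1.14 for Il12a (limma adjusted p = 0.021). Of 7 pan B cell markers 3 fell, with Cd22 at -0.99 (SE 0.18), Cd79b at -0.62 (SE 0.10) and Ms4a1, which encodes CD20, at -0.51 (SE 0.08). The mean of the 7 was -0.05 and -0.35 in anti-IgM NOD, against 0.08 to 0.18 in unstimulated NOD. In NR4 that mean was -0.47 to -0.27 with anti-IgM, against -0.15 to 0.35 unstimulated. With each of the 11 arrays left out in turn, Cd79b and Ms4a1 passed 9 times, Itgax 8 times and Cd22 3 times. The part of other cells in the responses was not tested. In RNA of a whole culture, fewer expressing cells and less RNA per cell cannot be told apart, which applies to Il12a and to these markers. Centred values do not show whether a marker is present, so the labelled cell type could not be checked by level.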

How the data were processed

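Arrays were grouped by strain and culture from the sample titles. The deposited table holds values of 45101 probe sets, taken as log2, made by the authors with RMA per the submitters' processing notes. RMA adjusts background, equalises the arrays' distributions and combines the probes of a probe set. Its version and the log base are not stated in the sources used here. The median over the 11 arrays is 0 in each of the 45101 probe sets, which shows that they were centred and hold no levels.

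Genes are medians of probe sets with 1 symbol in the platform annotation (34945 probe sets, 18193 genes). A model with a mean per group (7 residual degrees of freedom) was fitted to all 11 arrays with limma 3.58.1 in R 4.3.3. P-values are two-sided and Benjamini-Hochberg adjusted over all genes within each of 5 comparisons, at a threshold of 0.05. The steps were run on simulated data with independent noise on each array. Such data lack the correlated deviations described below, so that run checks the code and not the calls made here. Precision is limited by the number of arrays. The members, lists, motifs and tests were chosen with earlier results of these data known. All members are described. From each list the called genes are named, or the 2 with the smallest p where none was called, and 5 genes most like Il10 and Il12a. For the cell type lists called genes alone are named. Il27, Tnfsf13, Il22 and Tigit, and the markers Klrb1c and Clec9a, had no probe set with a single symbol and were not analysed here. Promoter sequences are from RefSeq, GRCm38.p6.

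Deviations from group means of same-numbered arrays correlated at 0.33, 0.22 and 0.47 between NR4 cultures and at 0.59, 0.21 and 0.51 between unstimulated strains, above the limit of 0.1 set for pairing. The numbers are those of the sample titles, and the labels do not say that they mark lots. In anti-IgM NOD only 2 numbers exist, with 0.63 and 0.12 against unstimulated NOD and 0.37 and -0.12 against anti-IgM NR4, so pairing is not established there. Its replicate 2 correlated more with replicate 3, at 0.58 in unstimulated NOD and 0.50 in anti-IgM NR4. With 2 arrays in that group, their deviations are equal and opposite. Whether the numbers match across groups was not tested. The replicate block and the same-numbered differences take them as given. The block shares each number between NOD and NR4, whose lots are separate, so it is not a pairing by lot within a strain. Alternatives were the replicate number as a block, quantile normalization, the lowest-numbered probe set, every probe set tested on its own, and each array left out.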

Additional observations from a re-analysis of the deposited data

How the results depend on the processing

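The averaged responses of Il10 and Il12a kept their direction and passed under every alternative run, at 1.43 to 1.70 and -1.37 to -1.05 with each array left out. The replicate block, the pairing by number, changed the call of 1 member, Ltb, in the averaged response (-0.58, limma adjusted p = 0.033), and no other call of a member. With the block 558 genes passed in the averaged response, 52 in NOD, 229 in NR4 and 37 between strains, against 283, 21, 75 and 22 without it. Quantile normalization of the centred values left 9 genes in NOD and 16 in NR4, 10 higher and 6 lower in NR4, against 30 and 45. There Lta in NR4 was at 0.12 and the Il10 interaction at 0.06, both with the sign turned and not called. With every probe set tested, 495 passed in the averaged response and 37 between strains. With the lowest-numbered probe set Adam17 was at -0.09. Leaving out each array gave 76 to 273 called genes in the averaged response, 0 to 25 in NOD, 21 to 50 in NR4 and 12 to 21 between strains, and 0 in the interaction. Uncalled values that changed sign when an array was left out were the NOD response of Ebi3 (-0.14 to 0.19), the NR4 response of Lta (-0.13 to 0.15) and the strain difference of Il12a (-0.07 to 0.25). Interactions that did so were those of Il10 (-0.48 to 0.05), Il12a (-0.02 to 0.61), Ltb (-0.74 to 0.33) and Il6 (-0.09 to 0.11). The cause of these changes was not tested. Where an array of anti-IgM NOD was left out, the remaining one was assumed to vary like the other groups. Signal over background is not known for centred values.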
